A study of Mus musculus with 10 samples.

Results

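Bone morphogenetic proteins (BMPs) are secreted ligands that bind paired type I and type II receptor kinases and act through phosphorylated Smad proteins. The 9 mouse genes described here are 3 BMP ligands (*Bmp2*, *Bmp4* and *Bmp7*), the secreted BMP antagonist *Grem1*, the Id genes *Id1*, *Id2* and *Id3*, and the inhibitory Smads *Smad6* and *Smad7*. They were chosen by name as ligands, antagonist and common transcriptional targets of the pathway, and each was found exactly once among the 39273 genes of the table. All 9 passed the filter on low counts.

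In the embryonic kidney, BMP4 from the cells around the nephric duct restrains budding, and gremlin 1 relieves this restraint where the ureteric bud (UB) forms. BMP7 is made by the bud epithelium and by nephron progenitors. Phosphorylated Smads switch on the Id genes, whose proteins hold basic helix-loop-helix factors away from DNA, and they also switch on *Smad6* and *Smad7*, whose products dampen the receptors.

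RNA-seq libraries of UB organoids at day 5, day 10 and day 20 of culture, of collecting duct (CD) organoids and of adult mouse collecting duct cells (adult mCD) were compared, with 2 libraries in each of the 5 groups. UB organoids were grown from ureteric buds taken at E11.5 from *Wnt11*-RFP +/- mice on a C57BL/6 x Swiss Webster background. Their medium, mUBCM, held LDN-193189, an inhibitor of BMP type I receptors, A83-01, an inhibitor of TGF-beta type I receptors, JAK Inhibitor I, the p38 inhibitor SB202190, and CHIR99021, TTNPB, GDNF, FGF9 and Rspo1. CD organoids were derived from day 10 UB organoids in CDDM, a medium with FGF9, Y27632, the Notch pathway inhibitor DAPT, the MEK inhibitor PD0325901, aldosterone and vasopressin, and without LDN-193189, A83-01, JAK Inhibitor I and SB202190. Adult mCD were *Hoxb7*-Venus cells sorted from kidneys of 2-month-old mice according to the design text, whereas their sample labels describe organoids, embryonic day 11 and the *Wnt11*-RFP +/- genotype of the other groups. The components named for CDDM also do not include CHIR99021, TTNPB, GDNF and Rspo1. The change from mUBCM to CDDM thus altered many components at once and came with differentiation. No single one of these changes, removal of LDN-193189 included, can be told apart from the rest in these libraries. The labels do not say whether the libraries of a group came from separate cultures or animals, and the p-values measure the spread between these libraries, which may be technical.

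Total counts ranged from 11913613 to 24536676, and the libraries of day 20, CD organoids and adult mCD were shallower than those of days 5 and 10. Their sample numbers also form a block separate from that of days 5 and 10. Whether the blocks were prepared or sequenced apart is not stated. In comparisons across this split, such a difference cannot be told apart from culture day, medium or cell type. Levels are given as CPM, counts scaled to a common library size with edgeR's TMM factors, and 3 counts corresponded to between 0.109 and 0.241 CPM. The 5 UB markers *Ret*, *Wnt11*, *Gata3*, *Hoxb7* and *Calb1* were each above 3 counts in at least 1 library of every group. Their summed level was 1740 to 2882 CPM in UB organoids, 1370 to 1445 CPM in CD organoids and 1540 to 1570 CPM in adult mCD. *Calb1* was the highest of the 5 in CD organoids, at 800 and 883 CPM, and in adult mCD, at 1198 and 1276 CPM. Within UB organoids *Wnt11* was at 376 and 496 CPM at day 5 and 19.2 and 22.7 CPM at day 20. *Ret* was at 610 and 702 CPM at day 5 and 2100 and 2075 CPM at day 20. The 5 intercalated cell markers summed to at most 4.83 CPM in UB organoids and to at least 1046 CPM in CD organoids and adult mCD. These 2 groups differed in single markers. *Slc4a1* was at 2.78 and 2.25 CPM in CD organoids against 545 and 530 CPM in adult mCD, and *Foxi1* at 508 and 472 CPM against 169 and 169 CPM. The principal cell marker *Aqp2* stood at 632 and 485 CPM in CD organoids against at most 6.88 CPM in UB organoids, while *Avpr2*, another marker of these cells, was at most 0.314 CPM in all 10 libraries, adult mCD included. The adult mCD libraries also held markers of other kidney cells, with all 5 endothelial genes summing to 633 to 637 CPM against at most 2.64 CPM elsewhere, and all 5 proximal tubule genes summing to 3226 to 3848 CPM against at most 34.0 CPM elsewhere. In bulk libraries such as these, fewer cells of a type and less RNA per cell cannot be told apart.

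Genes were tested with edgeR's quasi-likelihood test and Benjamini-Hochberg adjustment over 24410 genes, and all adjusted p-values below come from this test. A gene is called when its adjusted p is at most 0.01 and its change exceeds 4-fold, which are the thresholds in the study's methods. A gene is said to have risen or fallen when its adjusted p was at most 0.05, whatever the fold change. A log2 fold change is given with its standard error.

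Of *Bmp2*, *Bmp4* and *Bmp7*, the last was by far the most abundant. It lies on chromosome 2 of GRCm38 from 172868012 to 172940321 on the minus strand. Its level was 318 and 349 CPM at day 5, 256 and 207 CPM at day 10, 223 and 238 CPM at day 20, 178 and 174 CPM in CD organoids and 112 and 115 CPM in adult mCD. The order was day 5, then days 10 and 20, which overlapped, then CD organoids, then adult mCD. From day 5 to day 20 *Bmp7* fell by 0.53 ± 0.093 on the log2 scale (adjusted p = 0.000328). In CD organoids it was lower than in day 10 UB organoids by a log2 fold change of -0.40 ± 0.094 (adjusted p = 0.0029), and it remained above adult mCD by 0.63 ± 0.096 (adjusted p = 8.3e-05). *Bmp7* was thus a ligand of every group, with a change that never reached 4-fold.

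*Bmp4* (chromosome 14, 46383520 to 46390669, minus strand) was a minor ligand of UB organoids that fell during culture. It was measured at 11.7 and 10.9 CPM at day 5, 12.6 and 6.38 CPM at day 10, 2.12 and 2.18 CPM at day 20, 2.71 and 2.89 CPM in CD organoids and 18.4 and 21.1 CPM in adult mCD. Days 5 and 10 overlapped, both days lay above day 20 and CD organoids, and adult mCD was highest. From day 5 to day 20 *Bmp4* was called lower, at -2.37 ± 0.29 (adjusted p = 1.41e-05). The step from day 10 to day 20 was called at -2.11 ± 0.29 (adjusted p = 0.00012) and was -1.52, under 4-fold, without day 10 replicate 1. From day 10 to CD organoids it fell by 1.74 ± 0.29 on the log2 scale (adjusted p = 0.000168), a change under 4-fold that became -2.14 without day 10 replicate 2, the lower library of that day. Against adult mCD, CD organoids were called lower at -2.80 ± 0.29 (adjusted p = 1.82e-06). *Bmp4* overlaps the opposite-strand genes *Gm15217* and *Gm15222*, and the sources used here do not state whether reads were counted by strand.

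*Bmp2* (chromosome 2, 133552159 to 133562885, plus strand) had the opposite course in CD organoids. Its level was 0.128 and 0.980 CPM at day 5, 4.60 and 3.10 CPM at day 10, 0.850 and 0.926 CPM at day 20, 8.76 and 9.38 CPM in CD organoids and 5.65 and 5.90 CPM in adult mCD. CD organoids were highest and did not overlap any other group, and the libraries of day 5, of which replicate 1 held 3 counts, enclosed those of day 20. From day 10 to CD organoids *Bmp2* rose by 1.23 ± 0.35 on the log2 scale (adjusted p = 0.0109), and from day 20 to CD organoids it was called higher at 3.28 ± 0.44 (adjusted p = 3.14e-05). It was called higher at day 10 than at day 5, at 2.66 ± 0.44 (adjusted p = 0.000418), and lower at day 20 than at day 10, at -2.05 ± 0.45 (adjusted p = 0.00368). Each of these calls within UB organoids was lost without certain libraries, the first at 1.91 without day 5 replicate 1 (4.40 and called without replicate 2) and the second at -1.72 without day 10 replicate 1, at -1.97 without day 20 replicate 1 and at -2.08 (adjusted p = 0.0356) without day 20 replicate 2.

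On the deposited RPKM scale, which divides by the gene length that came with the table, the ligands differed in their balance. For *Id1* that length is longer than the span of the gene on its chromosome. Ratios between genes thus depend on how the lengths were counted, whereas the change of a ratio between groups does not. *Bmp7* exceeded *Bmp4* by 26.1 and 30.7 times at day 5 and by 19.5 and 31.3 times at day 10. The ratio was 101 and 105 at day 20 and 63.2 and 58.0 in CD organoids. In adult mCD it was 5.85 and 5.24, the lowest of the 5 groups. *Bmp2* exceeded *Bmp4* in RPKM in both CD organoid libraries, at 2.54 and 2.72 against 0.623 and 0.664, and in none of the other 8 libraries. The same held in CPM.

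**Figure D1:**
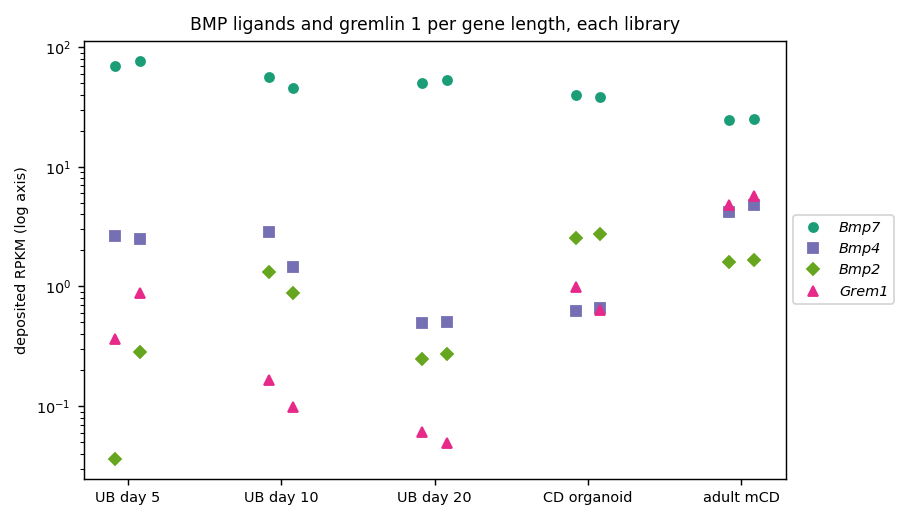
Deposited RPKM of *Bmp7*, *Bmp4*, *Bmp2* and *Grem1* in each of the 2 libraries of the 5 groups, on a log axis, with a point for each library. *Bmp7* was the highest of the 4 genes in all 10 libraries, *Bmp2* lay above *Bmp4* in both CD organoid libraries, and *Grem1* reached 4.80 and 5.65 RPKM in adult mCD.

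*Grem1* encodes gremlin 1, which binds BMP2, BMP4 and BMP7 outside the cell. It is on chromosome 2 from 113746164 to 113758646 on the minus strand. Its level was 1.49 and 3.55 CPM at day 5, 0.674 and 0.401 CPM at day 10, 0.243 and 0.198 CPM at day 20, 3.99 and 2.57 CPM in CD organoids and 19.6 and 23.3 CPM in adult mCD. Day 20 rested on 4 and 3 counts, CD organoids overlapped day 5, and adult mCD stood above every other library.

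*Grem1* was the member called between day 10 UB organoids and CD organoids. Its log2 fold change was 2.51 ± 0.42 (adjusted p = 0.000193), and by 3.60 ± 0.53 against day 20 (adjusted p = 7.47e-05). Leaving out either library of either group gave 2.16 to 2.89 against day 10, with *Grem1* called each time. CD organoids were called lower than adult mCD at -2.68 ± 0.33 (adjusted p = 1.14e-05). During UB culture *Grem1* was called lower at day 20 than at day 5, at -3.23 ± 0.53 (adjusted p = 0.000186), and at -2.48 without day 5 replicate 2. It was also called lower at day 10 than at day 5, at -2.14 ± 0.41 (adjusted p = 0.00115), and this change was -1.40 without day 5 replicate 2 and -1.84 without day 10 replicate 2, both under 4-fold.

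Some stromal markers moved with *Grem1* in CD organoids. The sum of the 6 measured was 127 to 257 CPM in CD organoids and 137 to 150 CPM in adult mCD. It was 13.7 to 39.7 CPM at day 5, 19.2 to 24.7 CPM at day 10 and 9.12 to 10.3 CPM at day 20. At day 5 *Col1a1*, at 3.12 and 11.8 CPM, and *Col1a2*, at 4.48 and 10.7 CPM, were higher in replicate 2, as was *Grem1*. *Pdgfra* and *Foxd1* were not. In CD organoids *Col1a1* stood at 76.3 and 30.6 CPM and *Col3a1* at 119 and 61.4 CPM, both higher in replicate 1, as was *Grem1*, while *Foxd1* was at or under 3 counts in both libraries. Of the 6 genes, 4 were called higher in CD organoids than at day 10, *Foxd1* did not pass, and *Pdgfrb* fell from 4.84 and 4.45 CPM to 3.28 and 1.68 CPM. The part of stromal cells in the *Grem1* result was not tested.

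The 250 bases before the RefSeq start of *Grem1* and of *Smad6* are shown because the former was called between the media and the latter, a target of the pathway, was not. Capitals mark GGCGCC, a GC-rich motif to which BMP-activated Smads can bind, and GTCTG or its complement CAGAC, which holds the Smad-binding GTCT. The shorter GTCT, or its complement AGAC, was not itself marked or counted, and it also occurs unmarked in both windows. The sequences are from RefSeq on GRCm38.p6 and are written 5′ to 3′ on the strand of the gene, which is the minus strand for both. *Grem1* spans chr2:113758649-113758898 and *Smad6* chr9:64022060-64022309.
Grem1: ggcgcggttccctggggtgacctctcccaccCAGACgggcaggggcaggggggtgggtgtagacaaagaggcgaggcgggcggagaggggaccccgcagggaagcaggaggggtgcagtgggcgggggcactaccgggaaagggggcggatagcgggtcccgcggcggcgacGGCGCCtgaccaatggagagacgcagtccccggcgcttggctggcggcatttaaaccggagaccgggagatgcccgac
Smad6: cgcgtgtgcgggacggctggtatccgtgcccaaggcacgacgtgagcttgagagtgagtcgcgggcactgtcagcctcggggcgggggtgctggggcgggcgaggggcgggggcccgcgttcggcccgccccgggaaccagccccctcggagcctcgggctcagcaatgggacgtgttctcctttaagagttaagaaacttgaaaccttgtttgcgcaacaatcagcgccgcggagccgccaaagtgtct

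Of all 32851 RefSeq windows of this length, 9.59% hold GGCGCC and 42.2% hold GTCTG on either strand. The promoter table has a window for 5 of the 9 members. GGCGCC was found 1 time each in *Grem1* and *Id2*, GTCTG or its complement 1 time in *Grem1* and 2 times in *Id3*, and neither in *Smad6* or *Bmp4*. The *Id3* window lies wholly in exons annotated by GENCODE M21 and that of *Id2* has 161 of its 250 bases there, so these are not purely upstream sequence. GC content was 72% in the *Grem1* window and 66.8% in that of *Smad6*, against a median of 52.4% over all windows. A match is a description of the letters and not evidence of binding.

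Among the Id genes, *Id1* (chromosome 2, 152736251 to 152737410, plus strand) changed most during UB culture. Its level was 11.3 and 16.8 CPM at day 5, 22.9 and 21.2 CPM at day 10, 69.6 and 76.2 CPM at day 20, 25.8 and 32.7 CPM in CD organoids and 73.7 and 71.9 CPM in adult mCD. Day 20 and adult mCD overlapped and were far above the other groups, which followed in the order CD organoids, day 10 and day 5 with no overlap.

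*Id1* was called higher at day 20 than at day 5, at 2.37 ± 0.15 (adjusted p = 4.84e-08), while LDN-193189 was in the medium throughout. The step from day 10 to day 20 was 1.72 ± 0.15 (adjusted p = 2.16e-06) and that from day 5 to day 10 was 0.64 ± 0.15 (adjusted p = 0.00557). From day 10 to CD organoids *Id1* rose by 0.41 ± 0.15 (adjusted p = 0.0429). CD organoids were lower than day 20 at -1.32 ± 0.15 (adjusted p = 5.97e-06) and lower than adult mCD at -1.32 ± 0.15 (adjusted p = 5.37e-06).

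Immediate early genes, which cells switch on within minutes of handling or stimulation, had the same 2 groups on top. The summed level of *Fos*, *Egr1*, *Junb* and *Ier2* was 3356 to 4145 CPM at day 20 and 10424 to 11752 CPM in adult mCD, against 117 to 227 CPM in the libraries of day 5, day 10 and CD organoids. All 4 were called higher at day 20 than at day 10. This list was added after the values were seen, and the part of such a response in the *Id1* result was not tested.

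*Id3* (chromosome 4, 136143497 to 136145755, plus strand) was lowest in CD organoids. It was measured at 80.7 and 102 CPM at day 5, 138 and 138 CPM at day 10, 167 and 157 CPM at day 20, 60.8 and 65.9 CPM in CD organoids and 155 and 159 CPM in adult mCD. Both CD organoid libraries lay under all 8 other libraries. From day 10 to CD organoids *Id3* fell by 1.12 ± 0.10 on the log2 scale (adjusted p = 4.56e-07), a change that lay between -1.22 and -1.07 under every scaling tried and every library left out. From day 5 to day 20 it rose by 0.82 ± 0.097 (adjusted p = 1.05e-05). CD organoids were lower than adult mCD by a log2 fold change of -1.31 ± 0.10 (adjusted p = 1.11e-07).

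*Id2* (chromosome 12, 25093799 to 25097140, minus strand) was almost level among the organoids and high in adult mCD. It was measured at 75.1 and 84.0 CPM at day 5, 109 and 88.4 CPM at day 10, 99.5 and 108 CPM at day 20, 79.1 and 89.4 CPM in CD organoids and 335 and 369 CPM in adult mCD. The neighbouring organoid groups overlapped, and adult mCD stood apart. Between day 10 and CD organoids the log2 fold change was -0.23 ± 0.11 (adjusted p = 0.0968). Against adult mCD, CD organoids were called lower at -2.06 ± 0.11 (adjusted p = 2.47e-09), close to the 4-fold threshold, and the change was -1.67 with library totals -1.91 with upper-quartile factors and -1.98 without CD organoid replicate 1, where it was not called.

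*Smad7*, whose product blocks both the BMP and the TGF-beta receptors, separated adult mCD from all organoids. It was measured at 8.88 and 16.9 CPM at day 5, 8.29 and 6.67 CPM at day 10, 13.7 and 14.8 CPM at day 20, 8.19 and 10.9 CPM in CD organoids and 160 and 145 CPM in adult mCD. The organoid groups overlapped their neighbours in level. CD organoids were called lower than adult mCD at -4.00 ± 0.23 (adjusted p = 6.28e-09), the largest difference of a member in that comparison, and adult mCD was called higher than day 10 at 4.34 ± 0.22 (adjusted p = 8.52e-10). Between day 10 and CD organoids the log2 fold change was 0.35 ± 0.25 (adjusted p = 0.288). From day 10 to day 20 *Smad7* rose by 0.92 ± 0.24 (adjusted p = 0.00968).

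*Smad6* (chromosome 9, 63953076 to 64022059, minus strand), whose product acts mainly on BMP signals, fell during UB culture. It was measured at 26.1 and 30.8 CPM at day 5, 18.1 and 14.4 CPM at day 10, 14.0 and 14.2 CPM at day 20, 18.6 and 21.3 CPM in CD organoids and 34.7 and 31.7 CPM in adult mCD. The 5 groups did not overlap, although the means of days 10 and 20 lay closer together than 1 SD of day 10. From day 5 to day 20 the log2 fold change was -1.01 ± 0.14 (adjusted p = 3.7e-05), in the direction opposite to *Id1* and *Id3*. Between day 10 and CD organoids it was 0.29 ± 0.14 (adjusted p = 0.0957), and CD organoids were lower than adult mCD at -0.73 ± 0.14 (adjusted p = 0.000481).

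The endothelial, proximal tubule and other nephron markers described above moved with the high *Smad7*, *Id2* and *Grem1* of adult mCD. The loop of Henle markers *Umod* and *Slc12a1* summed to 3274 to 3467 CPM there and the distal convoluted tubule markers *Slc12a3* and *Pvalb* to 444 to 492 CPM, against at most 5.13 CPM and 1.44 CPM in the organoids. The immediate early genes described above were also highest in adult mCD, at a summed 10424 to 11752 CPM. The parts of other cells and of such a response in these differences were not tested.

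**Figure D2:**
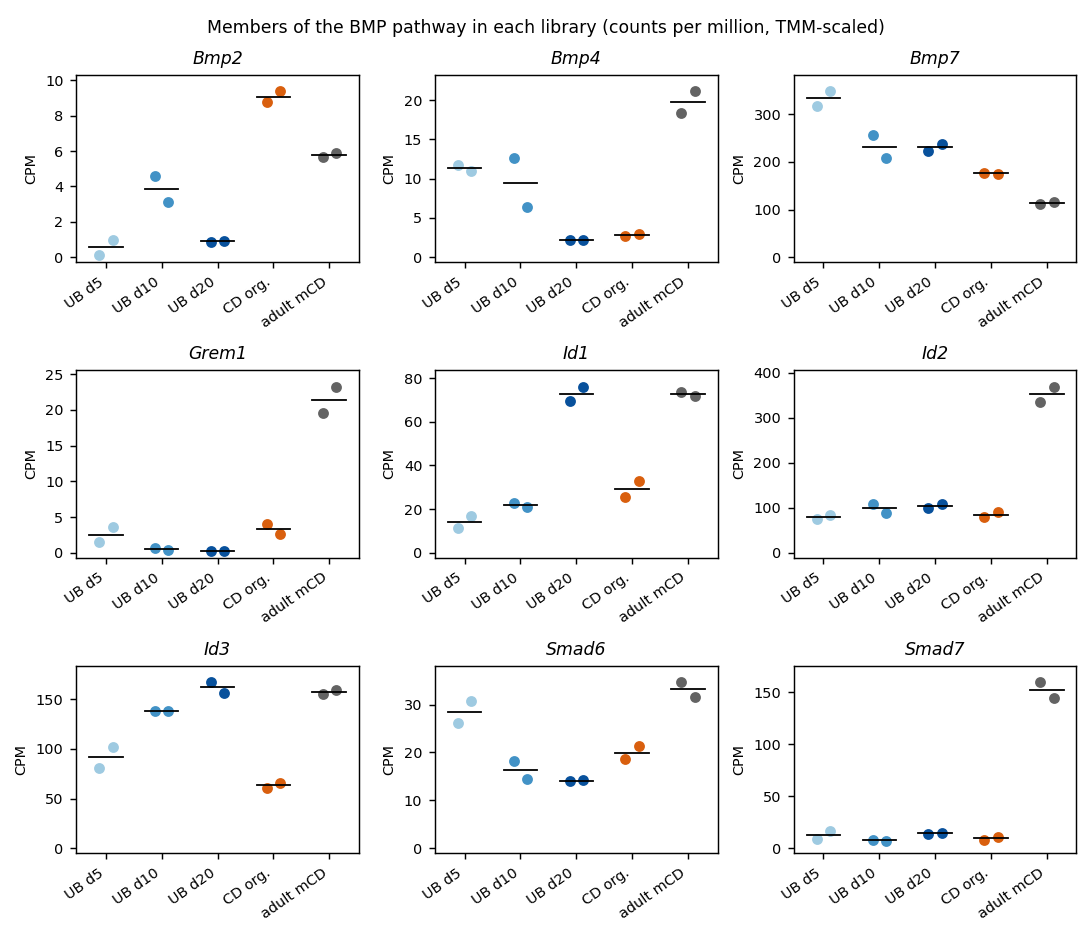
Level of each of the 9 members in CPM on a linear axis, with a point for each library and a line at the mean of the 2 libraries of a group. *Id1* was high at day 20 and in adult mCD, *Id3* was lowest in CD organoids, *Bmp2* was highest in CD organoids, and *Smad7*, *Id2* and *Grem1* were highest in adult mCD.

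The comparison of CD organoids with day 10 UB organoids spans the change from a medium with LDN-193189 to a medium without it. Of the 9 members, 1 was called, *Grem1*, in the higher direction, against 10.7% of all genes called in either direction and 4.96% called higher. Without regard to fold, 3 members rose (*Bmp2*, *Grem1* and *Id1*), 3 fell (*Bmp4*, *Bmp7* and *Id3*) and 3 did not pass (*Id2*, *Smad6* and *Smad7*), against 47.2% of all genes passing. Of the 5 targets, 1 rose and 1 fell. The median log2 fold change was 0.29 over the members and -0.15 over all genes. Against day 20, which shares the CD organoid libraries with this comparison, *Bmp2* and *Grem1* were called higher, against 9.46% of all genes called and 4.74% called higher. All 3 Id genes fell, as did 21.3% of all genes, with 42.2% passing in either direction.

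Within UB culture, 3 members were called from day 5 to day 20 (*Id1* higher, *Bmp4* and *Grem1* lower), against 8.61% of all genes. All 3 Id genes rose, as did 20.6% of all genes, and 7 members passed without regard to fold against 45.1% of all genes. From day 5 to day 10, 2 members were called, against 3.41% of all genes, and 8 passed without regard to fold, against 32.7%. From day 10 to day 20, 2 members were called lower, against 3.39% of all genes called and 1.73% called lower, and 4 passed without regard to fold, against 29%. CD organoids were called lower than adult mCD in 4 members (*Bmp4*, *Grem1*, *Id2* and *Smad7*) and higher in 0, against 14.3% of all genes called and 9.84% called lower, and 8 passed without regard to fold, against 49.9%. Adult mCD were called higher than day 10 UB organoids in 2 members, *Grem1* at 5.19 ± 0.38 (adjusted p = 3.29e-08) and *Smad7*, against 22.5% of all genes called and 13.4% called higher, and 7 passed without regard to fold, against 61.8%.

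**Figure D3:**
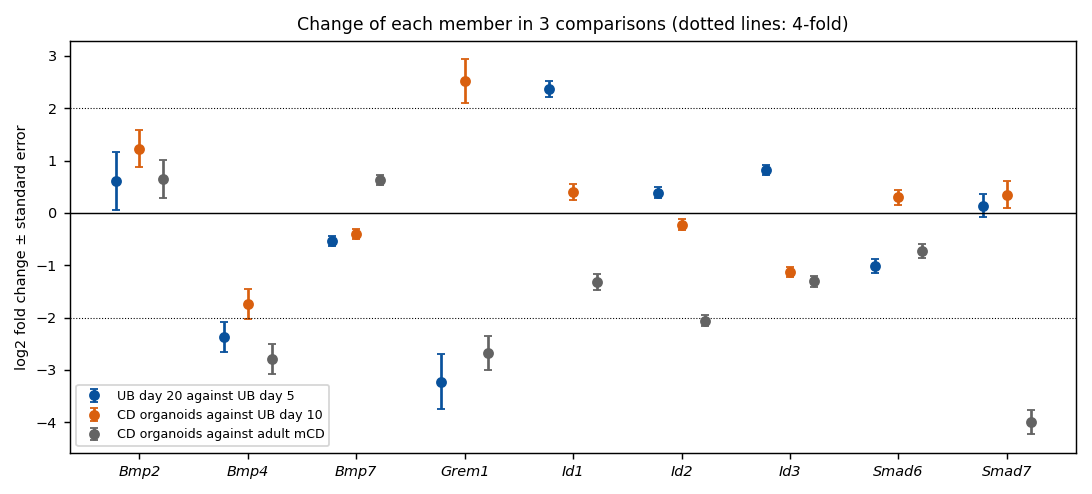
Log2 fold change of each member with its standard error as the bar, for day 20 against day 5 UB organoids, CD organoids against day 10 UB organoids and CD organoids against adult mCD, with dotted lines at 4-fold. *Grem1* was the member past 4-fold in CD organoids against day 10, *Id1*, *Bmp4* and *Grem1* passed it from day 5 to day 20, and 4 members lay below the lower line against adult mCD.

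Other ligands of the family were examined from a list of 11, of which 7 passed the filter on low counts. In CD organoids against day 10, 3 of the 7 were called higher and 0 lower, against 4.96% of all genes called higher. These were *Bmp3*, *Bmp8a* and *Gdf7*. *Gdf7*, named after its values were seen, held 0 and 0 counts at day 10 and 13 and 13 counts in CD organoids. *Bmp3*, which encodes a ligand that opposes other BMPs, stood at 0.0854 and 0.408 CPM at day 5, 26.7 and 36.0 CPM at day 10, 57.0 and 57.9 CPM at day 20, 325 and 296 CPM in CD organoids and 32.6 and 30.7 CPM in adult mCD. It climbed without overlap from day to day and was highest in CD organoids, with a log2 fold change of 3.31 ± 0.14 against day 10 (adjusted p = 2.86e-10). In CD organoids its mean RPKM was 20.1 against 38.9 for *Bmp7*, whereas in CPM it lay above *Bmp7*, which was at 178 and 174 CPM. The order of these genes thus depended on the deposited gene lengths. *Bmp8a* was at 0.278 and 0.219 CPM at day 10 and 3.99 and 3.29 CPM in CD organoids, and its log2 change was 3.62 ± 0.31 (adjusted p = 3.55e-07). *Bmp6* was called lower at day 20 than at day 5 at -5.20 ± 0.49 (adjusted p = 1.46e-06).

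Receptors and signalling Smads were measured in every group. The type I receptor genes *Bmpr1a* and *Bmpr1b* stood at 196 to 297 CPM and 115 to 190 CPM over the 10 libraries, and the type II receptor gene *Bmpr2* at 93.8 to 249 CPM. Of the 7 receptor genes, 0 were called between day 10 and CD organoids in edgeR's quasi-likelihood test, against 10.7% of all genes. Without regard to fold, 4 receptor genes rose and 1 fell, against 47.2% of all genes passing. *Acvr2b*, a type II receptor shared with activins, was called lower at day 20 than at day 5 at -2.72 ± 0.12 (adjusted p = 2.39e-09). *Smad5*, which carries the BMP signal to the nucleus, stood at 207 and 223 CPM at day 10 and 101 and 103 CPM in CD organoids and fell by 1.07 on the log2 scale (adjusted p = 1.9e-08). *Smad1* rose by 0.34 (adjusted p = 0.0048), and the common partner *Smad4* had a log2 fold change of 0.10 (adjusted p = 0.27).

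Among 14 other antagonists and modulators, 13 were tested. CD organoids had 1 of these called higher and 2 called lower than day 10, against 10.7% of all genes called. The gene called higher was the chordin-like *Chrdl2*, named after its values were seen, at 0.278 and 0.146 CPM at day 10 and 1.71 and 1.20 CPM in CD organoids. *Chrdl1*, its paralogue, fell from 19.7 and 21.5 CPM at day 10 to 0.214 and 0.321 CPM in CD organoids, or by a log2 change of -6.02 ± 0.27 (adjusted p = 5.15e-10). *Sostdc1*, an antagonist of BMP and Wnt ligands, was called lower at -3.60 ± 0.30 (adjusted p = 2.59e-07). *Nbl1* was called higher at day 20 than at day 5, at 4.27 ± 0.22 (adjusted p = 7.61e-09).

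Of 6 further target genes of BMP signalling, 5 were tested. In CD organoids against day 10, *Atoh8*, a helix-loop-helix gene, was called lower at -2.03 ± 0.41 (adjusted p = 0.000882). In this comparison 0 of the 5 were called higher, against 4.96% of all genes. *Bambi*, which encodes a decoy receptor, fell from 21.3 and 19.9 CPM to 10.2 and 10.1 CPM, and *Id4* rose from 47.9 and 58.0 CPM to 85.0 and 88.1 CPM. Counted with the 5 member targets, 2 of 10 tested targets rose and 3 fell, against 47.2% of all genes passing without regard to fold. The E protein genes *Tcf3*, *Tcf4* and *Tcf12*, whose products Id proteins bind, all fell in this comparison, as did 6146 of the 24410 genes tested. *Tcf3* went from 302 and 319 CPM to 110 and 113 CPM.

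The other pathways that the small molecules of the media act on were read in the same comparison. Of all genes, 10.7% were called in it and 47.2% passed without regard to fold. JAK-STAT targets, with JAK Inhibitor I in mUBCM and absent from CDDM, split, with 3 of 6 rising and 2 falling and *Socs2* called lower at -2.34 ± 0.22 (adjusted p = 9.17e-07). TGF-beta targets, with A83-01 in mUBCM and absent from CDDM, rose in 4 of 6 genes and fell in 2, with 0 called in edgeR's quasi-likelihood test. *Ccn2*, a gene of the same list, was at 132 and 171 CPM at day 20, with A83-01 present, against 1.79 and 1.67 CPM at day 5. It was the gene of that list called higher from day 5 to day 20, while *Pmepa1* and *Tgfbi* were called lower, at -2.42 ± 0.30 (adjusted p = 1.57e-05) and -2.03 ± 0.21 (adjusted p = 2.66e-06). *Ccn2* was also high in adult mCD, at 183 and 135 CPM. It was low at day 10, at a mean of 1.46 CPM, and in CD organoids, at 4.77 and 4.81 CPM. The immediate early genes described above were likewise highest at day 20 and in adult mCD. The part of such a response in the *Ccn2* result was not tested. ERK targets, with the MEK inhibitor PD0325901 in CDDM, fell in 6 of 6 genes, 4 of them called. *Etv4* went from 321 and 304 CPM to 0.855 and 0.401 CPM, a log2 fold change of -8.81 ± 0.25 (adjusted p = 1.1e-11). GDNF, which signals through RET, was in mUBCM and is not named for CDDM. *Ret* went from 1358 and 1608 CPM at day 10 to 15.8 and 17.4 CPM in CD organoids. The parts of PD0325901, GDNF and differentiation in the fall of the ERK targets were not tested. The median log2 fold change was -3.58 over the ERK targets, 0.91 over the TGF-beta targets and 0.77 over the JAK-STAT targets, against -0.23 over the 3 Id genes, 0.32 over the inhibitory Smads and -0.15 over all genes.

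**Figure D4:**
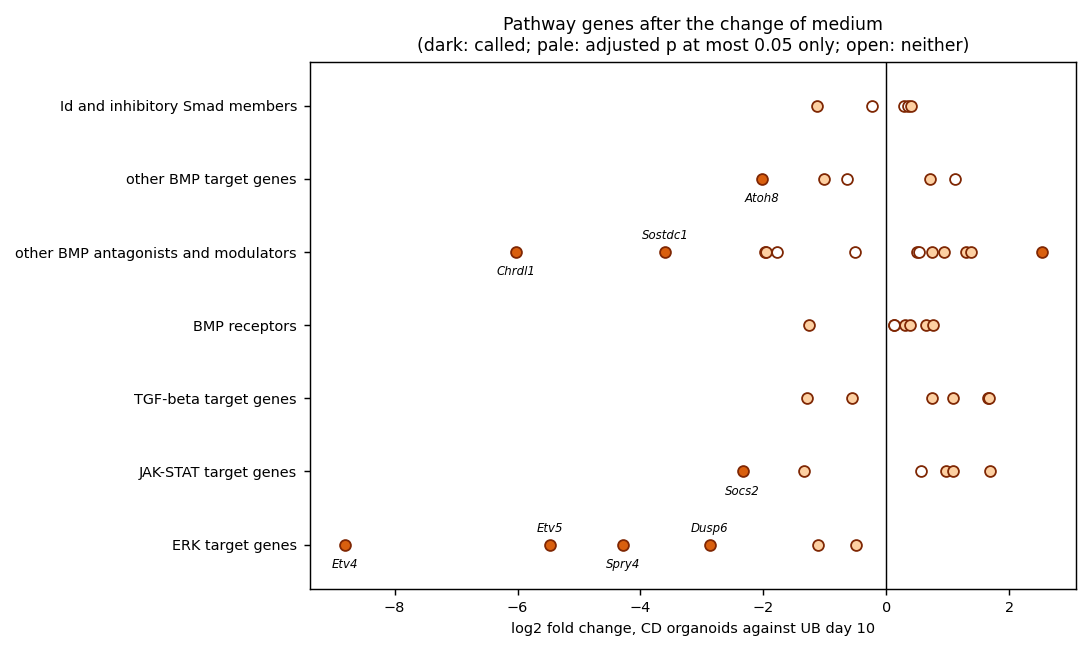
Log2 fold change in CD organoids against day 10 UB organoids of the 5 member targets and of the tested genes of 6 pathway lists, with a point for each gene, dark where called, pale where the adjusted p was at most 0.05 without a call, and open otherwise. ERK targets all lay below 0, *Chrdl1* was the lowest of the antagonists, and the Id genes and inhibitory Smads lay between -1.12 and 0.41.

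Against adult mCD, the lists split. Of all genes, 14.3% were called in this comparison and 9.84% were called lower, and 49.9% passed without regard to fold. The E proteins rose in 3 of 3 genes and the receptors in 3 of 7, with 2 falling, and of the signalling Smads 2 of 4 were higher in CD organoids and 0 lower. All 6 JAK-STAT targets fell, 5 of them called, with *Socs3* at 26.3 and 27.1 CPM in CD organoids against 591 and 575 CPM. Of the other antagonists and modulators, 6 were called lower and 2 higher, led by *Sostdc1* at -6.83 ± 0.27 (adjusted p = 1.36e-10). *Msx1*, a homeobox target of BMP signalling, was called lower at -5.35 ± 0.55 (adjusted p = 1.81e-06). In these lists too, the parts of other cells and of an immediate early response were not tested.

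Genes with the most similar pattern were sought for each member among 10539 genes with a mean of at least 10 CPM, by the root mean square difference of log2(CPM + 1) around each gene's own mean over the 10 libraries. The nearest gene lay at 0.065 for *Bmp7*, which was *Rnmt*, and at 0.35 for *Bmp2*, which was *Ampd3*. These were the closest and the most distant of the 9. By the same measure *Bmp7* varied by 0.52 around its own mean and *Bmp2* by 1.08, so the distances of different members are not on equal terms. For *Id1* the nearest were *Plcl1* at 0.22, *Impact* at 0.29 and *Alad* at 0.31. For *Grem1* they were *Scnn1g*, a subunit of the epithelial sodium channel, at 0.29, *Dgat2* at 0.31 and *Helz2* at 0.32. For *Smad7* they were *Aass* at 0.31, *Vdr*, the vitamin D receptor, at 0.31 and *Itpkc* at 0.32. These are descriptions over 10 libraries that fall into 5 groups.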

How the data were processed

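By the paper's methods, reads of mRNA libraries were trimmed, aligned with STAR to mm10 and assigned to GENCODE M24 genes in Partek Flow. The deposited table holds whole-number counts, RPKM values that the authors computed from them, and counts rescaled per library, a signal labelled TMM by the authors. Gene lengths came with the table. The submitters' processing notes differ from the paper and name FastQC 0.11.8, cutadapt 2.5, Trimmomatic 0.36, STAR, edgeR 3.28.1 and GRCm38.p6. Which description applies to the deposited counts was not settled here. Library kits differ between the labels (RNeasy, TruSeq) and the paper (Direct-zol, KAPA).

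Tests on counts used glmQLFit and glmQLFTest of edgeR 4.0.16 (R 4.3.3), TMM factors, a prior count of 1 and a minimum of 10 counts summed over the 10 libraries, in one fit of 5 group means. Standard errors were derived from the test statistic and are approximate. The step was tested on simulated data. RPKM, with the deposited gene lengths, were used to set genes side by side, and scaled counts as an alternative with limma 3.58.1. DESeq2 1.42.0 was another alternative. Intervals and floors of 3 counts cover counting error only. Positions came from GENCODE M21 on GRCm38, which held 99.7% of identifiers. Every member was named. From each pathway list, up to 4 called genes with the largest change and a mean of at least 1 CPM were named per comparison, and receptors and Smads also for their levels. *Bambi*, *Id4*, *Tcf3*, *Tcf4*, *Tcf12* and the immediate early genes were chosen after their values were seen. The members and lists were chosen with earlier results of these data known. Some genes of the pathway lists are not reported here, and the list counts and medians leave them out.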

Additional observations from a re-analysis of the deposited data

How the results depend on the processing

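The number of members called was recomputed under each alternative, and 882 of 945 single-gene values under the alternatives kept their direction and their side of the threshold. With the looser threshold of 0.05 on the adjusted p and none on the fold, 8 members passed from day 5 to day 10, 4 from day 10 to day 20, 7 from day 5 to day 20, 6 in CD organoids against day 10, 7 against day 20, 8 against adult mCD and 7 in adult mCD against day 10. With a prior count of 5, and with limma on the deposited scaled counts, 1 member was called from day 5 to day 10 and 1 from day 10 to day 20, and with only the 4 libraries compared 0 were called from day 5 to day 10, with 2 of the 9 (*Bmp2* and *Grem1*) at an adjusted p of 0.0208 and 0.0196. Leaving out single libraries gave 1 to 2 calls from day 5 to day 10, 0 to 2 from day 10 to day 20 (0 without day 10 replicate 1, where *Bmp4* was at -1.52), 3 to 4 from day 5 to day 20, 1 to 2 in CD organoids against day 10, 2 against day 20, 3 to 4 against adult mCD and 2 to 3 in adult mCD against day 10. Directions turned where the change was small. *Bmp7* from day 10 to day 20 was 0.033 with another low-count filter, with DESeq2 size factors and with DESeq2, 0.026 with only the 4 libraries, -0.13 to 0.17 without single libraries (0.17 without day 10 replicate 1), and 0.060 without day 20 replicate 1. *Bmp4* from day 5 to day 10 ranged from -0.84 to 0.14 and *Id2* from day 10 to day 20 from -0.046 to 0.25 without single libraries, both turning without day 10 replicate 2. From day 5 to day 20, *Bmp2* was -0.14 and *Smad7* was -0.24 without day 5 replicate 1, and without day 5 replicate 2 they were 2.35 and 0.68. *Id3* in adult mCD against day 10 was -0.30 with library totals and with limma, settings that moved the median of all genes by -0.43 in that comparison, and 2622 genes were then called higher and 3268 lower with library totals, against 3273 and 2221. In CD organoids against adult mCD the median moved by 0.34, with 1607 higher and 2010 lower against 1098 and 2401. The cause of the other changes was not tested. Replicate numbers did not pair the libraries, with correlations of deviations between groups from -0.19 to 0.098, and with a replicate block 1 member was called in CD organoids against day 10 and no member call changed in any comparison. With 2 libraries a group, the spread estimated over all groups carries the test, and *Grem1* and *Bmp2* at a few counts limit their comparisons within UB organoids.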
